A study of Mus musculus with 8 samples.

Results

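The guanylate-binding proteins (Gbp genes) are large GTPases of the dynamin superfamily. The family was followed through 7 listed mouse genes, Gbp2, Gbp3, Gbp4, Gbp6, Gbp7, Gbp8 and Gbp9, and a probe set was taken as a member when the platform annotation assigned it to exactly 1 of these symbols. This gave 8 probe sets of 5 genes, out of 45037 probe sets other than array controls: a pair each for Gbp2, Gbp6 and Gbp7, and 1 each for Gbp3 and Gbp8. All 8 were above the median signal of the array and entered the test, in which 22518 probe sets were fitted together. The only probe set that names Gbp4, 1421104_at, is assigned to Gbp8 and Gbp4 together and is therefore no member, and no probe set was assigned to Gbp9 in the annotation used here.

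Spleen RNA was compared between 4 Yaa samples and 4 wild-type samples on 8 single-colour Affymetrix arrays. The Yaa samples came from males of the strain B6.SB-Yaa/J, which carry the Y-linked autoimmune accelerator, a Y chromosome that has received a piece of the X chromosome including the gene of the RNA sensor Tlr7, and the wild-type samples came from C57Bl/6J males. All mice were 8 weeks old and came from 1 supplier, spleens were teased into suspensions, and red cells were lysed, so the samples are spleen cells of mixed type with no gene deleted and no treatment in either group. The sample called Yaa 3 here was a pool of 2 spleens, and the other samples are described as separate animals. A difference between the strains can come from any locus at which they differ, and in RNA from a mixed suspension, fewer cells of a type and less RNA per cell cannot be told apart.

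Gbp proteins are known from cells exposed to interferon. Interferon gamma, made by T cells and NK cells, acts through the receptor chains Ifngr1 and Ifngr2 and the kinases Jak1 and Jak2 to switch on Gbp transcription, in part through the factor Irf1, and type I interferons induce part of the family as well. The proteins then assemble on the membranes of intracellular bacteria and on the vacuoles of parasites such as Toxoplasma, where they work beside the immunity-related GTPases (Irg), help to break the compartment open and pass bacterial products to inflammasome sensors. In the mouse the genes lie in a cluster on chromosome 3 (Gbp2, Gbp3 and Gbp7, with Gbp2b and Gbp5) and a cluster on chromosome 5 (Gbp4, Gbp6, Gbp8 and Gbp9).

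The promoters of the 3 chromosome 3 members are shown because they carry the letters through which interferon-activated factors are known to bind. Each runs from 250 bases before to 50 bases after the RefSeq transcription start in assembly GRCm38.p6, on the plus strand, 5′ to 3′. Capitals mark every match to the core of the interferon-stimulated response element (ISRE), spelled as TTTC, any 2 bases, and TTTC again, searched on both strands.
Gbp2, chr3:142620413-142620712: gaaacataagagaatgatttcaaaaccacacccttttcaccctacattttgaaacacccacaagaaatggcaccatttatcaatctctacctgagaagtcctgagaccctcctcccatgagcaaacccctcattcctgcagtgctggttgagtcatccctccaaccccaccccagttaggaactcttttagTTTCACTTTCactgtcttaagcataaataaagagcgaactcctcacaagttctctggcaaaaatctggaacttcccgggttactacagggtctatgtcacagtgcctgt
Gbp3, chr3:142559794-142560093: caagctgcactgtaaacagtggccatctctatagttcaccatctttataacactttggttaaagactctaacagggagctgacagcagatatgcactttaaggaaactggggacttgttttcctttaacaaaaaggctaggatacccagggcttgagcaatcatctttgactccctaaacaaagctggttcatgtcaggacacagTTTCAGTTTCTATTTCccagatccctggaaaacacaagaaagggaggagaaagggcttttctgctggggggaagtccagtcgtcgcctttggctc
Gbp7, chr3:142530086-142530385: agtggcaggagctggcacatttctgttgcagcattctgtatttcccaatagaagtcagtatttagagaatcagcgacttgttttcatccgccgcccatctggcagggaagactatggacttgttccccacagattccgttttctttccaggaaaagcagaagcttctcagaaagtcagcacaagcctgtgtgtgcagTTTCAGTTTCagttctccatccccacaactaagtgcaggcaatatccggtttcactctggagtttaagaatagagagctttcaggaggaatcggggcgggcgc

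The ISRE core began 59 bases before the start of Gbp2 and 53 bases before that of Gbp7. In Gbp3 a pair of overlapping cores began 45 and 39 bases before the start, and the other RefSeq start of Gbp3 held none in its window. Of all 32851 promoters of this length, 3.443% held the core. The gamma-activated site (GAS), spelled TTCNNNGAA and equal to its own reverse complement, was matched in Gbp7 at 106 and 87 bases before the start and in neither Gbp2 nor Gbp3, against 8.298% of all promoters. The letters are a description of these windows, and binding was not measured. Promoters of Gbp4, Gbp6, Gbp8 and Gbp9 were not analysed here.

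Before the results, 2 libraries stood apart, Yaa 3 and Yaa 2: on the first principal component of all tested probe sets they lay at 92.4 and -68.8, with the other 6 samples between -20.0 and 18.4. Lymphocyte markers were very low in Yaa 3: the mean log2 signal of 9 B cell markers was 5.77 in Yaa 3, between 10.29 and 11.03 in the other 3 Yaa samples, and between 10.35 and 10.72 in wild type, and 9 T cell markers averaged 5.81 in Yaa 3, between 9.05 and 9.98 in the other Yaa samples and between 8.86 and 9.47 in wild type. The B cell surface protein Ms4a1, the lowest of the 9 B cell markers in Yaa 3, stood at 4.08 there, next to the scale's floor of 4. The label of whole spleen tissue thus did not match its defining lymphocyte markers in Yaa 3. Other lists were at their highest in Yaa 3: NK cell markers averaged 8.93 there, between 7.32 and 7.90 in the other Yaa samples and between 7.19 and 7.63 in wild type, and splenic macrophage markers 10.23, between 8.78 and 9.11 in the other Yaa samples and between 8.77 and 8.90 in wild type. Monocyte and macrophage markers (10.18) and pancreas markers (8.09) were also highest in Yaa 3. The pancreas value is the mean of only 2 of 4 listed genes, because the rest were not above the median signal. It stood at 7.11 to 7.42 in wild type. Presence of pancreas tissue was not tested. Neutrophil markers were high in Yaa 1 (11.19), Yaa 3 (10.69) and Yaa 4 (10.07), with 8.86 in Yaa 2 and 8.44 to 9.21 in wild type, and erythroid markers were low in Yaa 2 (10.77, against 12.36 to 12.58 in the other Yaa samples and 12.26 to 12.55 in wild type). The trimmed mean of the deposited signals was 106.2 in Yaa 3, between 135.0 and 162.3 in the other Yaa samples, and between 143.3 and 192.0 in wild type. Tlr7, duplicated in Yaa, had log2 signals of 8.02, 8.51, 7.62 and 7.86 in Yaa and 7.31, 6.96, 7.24 and 6.85 in wild type on probe set 1422010_at, so all 4 Yaa samples, Yaa 3 included, were above every wild-type sample. On another of its 3 probe sets, 1449640_at, Yaa 3 stood at 6.30, below wild type 4 at 6.35. Values of the Gbp probe sets are given with and without these 2 libraries. Counts of the other lists are also given without Yaa 3 where they changed, and for some lists without both.

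No Gbp probe set passed the test between Yaa and wild-type spleens. After quantile normalization, log2 of the signal plus 16 and limma's moderated test with Benjamini-Hochberg adjustment over all tested probe sets, 0 of the 8 passed an adjusted p of 0.05, and 0 of 8 had an unadjusted p under 0.05; over all tested probe sets these shares were 0.00444% (1 probe set, of Casp9, an apoptotic caspase, named after its value was seen) and 4.73%. The smallest exact two-sided permutation p among the 8 was 0.0857, and a design of 4 against 4 cannot go below 0.0286. In 0 of 8 did the 4 Yaa values lie wholly above or wholly below the wild-type values, against 4.1% of all tested probe sets. The mean was higher in Yaa for 6 of 8 probe sets, against 47.6% of all, and this count was 4 of 8 with the deposited scaling, where the median of all probe sets was itself at -0.20 and 7 of 8 Gbp probe sets lay above that median. The median difference over the 8 was 0.21 on the log2 scale, Yaa minus wild type, and over all tested probe sets -0.01.

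**Figure D1:**
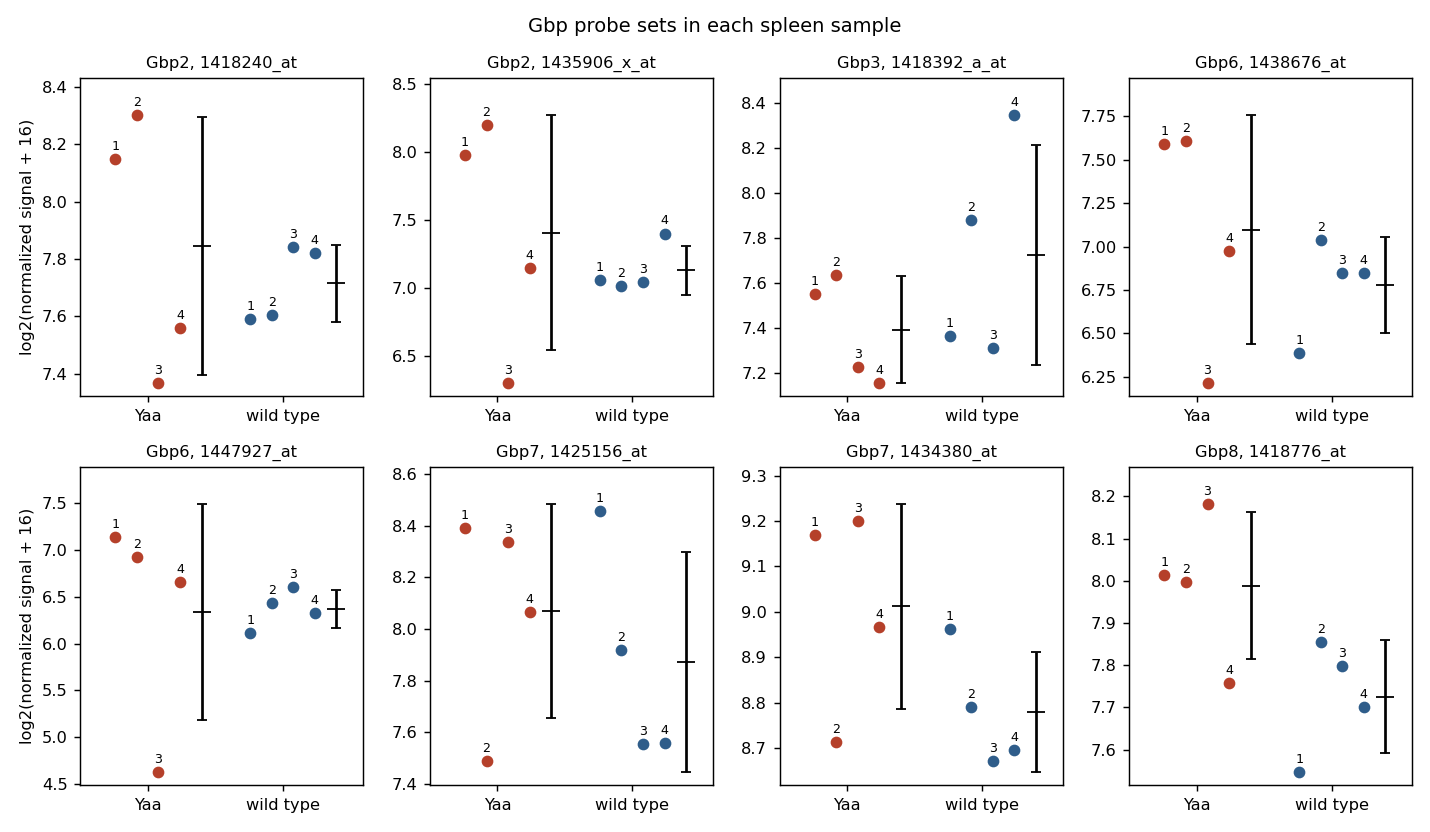
Log2 (normalized signal + 16) of the 8 Gbp probe sets, a panel each, in 4 Yaa samples on the left and 4 wild-type samples on the right of each panel, with bars at the group mean ± SD (n = 4). The Yaa and wild-type points overlap in all 8 panels, and the Yaa 3 points of Gbp2 and Gbp6 are the lowest.

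Gbp2 encodes a lipid-anchored member that is recruited to Toxoplasma vacuoles and to bacteria in the cytosol. Its brighter probe set, 1418240_at, had normalized signals of 268, 299, 149 and 173 in Yaa 1 to Yaa 4, against 177, 179, 213 and 210.3 in wild-type samples 1 to 4. The groups overlapped: Yaa 1 and Yaa 2 were above every wild-type sample, and Yaa 3 and Yaa 4 were below every one. The mean log2 signal was 7.84 ± 0.45 in Yaa and 7.71 ± 0.13 in wild type (SD, n = 4 each), a difference of 0.13 ± 0.22 (SE). As a fold this was 1.09, with a 95% interval from 0.777 to 1.54 and an exact permutation p of 0.571. It was 0.29 without Yaa 3, -0.02 without Yaa 2 and 0.03 without Yaa 1. The SD was 3.33 times as large in Yaa as in wild type.

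The other Gbp2 probe set, 1435906_x_at, had the same order of samples within Yaa. Its signals were 237, 278, 62.9 and 126 in Yaa 1 to Yaa 4, against 117, 113, 116 and 153 in wild type. The suffix _x_at marks probes that can match other transcripts, and Gbp genes are similar in sequence, so this value may include other family members. The difference was 0.28 ± 0.38 (SE), a fold of 1.21 with an interval from 0.672 to 2.18 and an exact permutation p of 0.514. Yaa 1 and Yaa 2 again lay above, and Yaa 3 below, every wild-type sample, while Yaa 4 lay within the wild-type range. Without Yaa 3 the difference was 0.65 ± 0.24 (limma, adjusted p = 0.657), and it was 0.01 without Yaa 2 and 0.08 without Yaa 1.

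Gbp6 is a member whose loss, in mouse macrophages, weakens defence against Listeria and mycobacteria. Its brighter probe set, 1438676_at, had signals of 177, 179, 58.3 and 109.9 in Yaa 1 to Yaa 4, against 67.7, 116, 99.2 and 99.0 in wild type. Yaa 1 and Yaa 2 were the highest of the 8 samples, Yaa 4 was within the wild-type range and Yaa 3 was the lowest. The difference of 0.32 ± 0.31 (SE) was the most positive of the 5 genes when each was represented by its brightest probe set, at a fold of 1.25 with an interval from 0.766 to 2.03 and an exact permutation p of 0.457. Without Yaa 3 it was 0.61 ± 0.21 (limma, adjusted p = 0.615), and it was 0.15 without Yaa 2, 0.15 without Yaa 1 and 0.19 without wild type 1.

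The other Gbp6 probe set, 1447927_at, disagreed with the first in the sign of the mean. It had signals of 125, 105, 8.83 and 84.5 in Yaa 1 to Yaa 4, against 53.4, 70.5, 81.0 and 64.2 in wild type. Yaa 1, Yaa 2 and Yaa 4 were all above every wild-type sample, and Yaa 3 was far below all others. The difference was -0.03 ± 0.49 (SE) with all samples and 0.54 ± 0.17 without Yaa 3 (limma, adjusted p = 0.586). It was -0.22 without Yaa 2, -0.30 without Yaa 1 and 0.04 without wild type 3, so leaving out a Yaa or a wild-type library could turn its sign. The SD was 5.68 times as large in Yaa as in wild type.

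Without Yaa 3, 3 of the 8 Gbp probe sets had an unadjusted p under 0.05 (both of Gbp6 and 1435906_x_at of Gbp2, all higher in Yaa), against 6.95% of all tested probe sets, and 0 passed the adjusted threshold. Whether the low lymphocyte markers of Yaa 3 have a part in its low Gbp2 and Gbp6 signals was not tested. In all tested probe sets, 31.5% had Yaa 3 below every wild-type sample, against 5 of the 8 Gbp probe sets, and 10.7% had Yaa 1 and Yaa 2 above every wild-type sample, again against 5 of 8. Both held for 4 Gbp probe sets, those of Gbp2 and Gbp6, and for 3.32% of all. These counts are of normalized signals, were chosen after the values were seen and are a description.

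**Figure D2:**
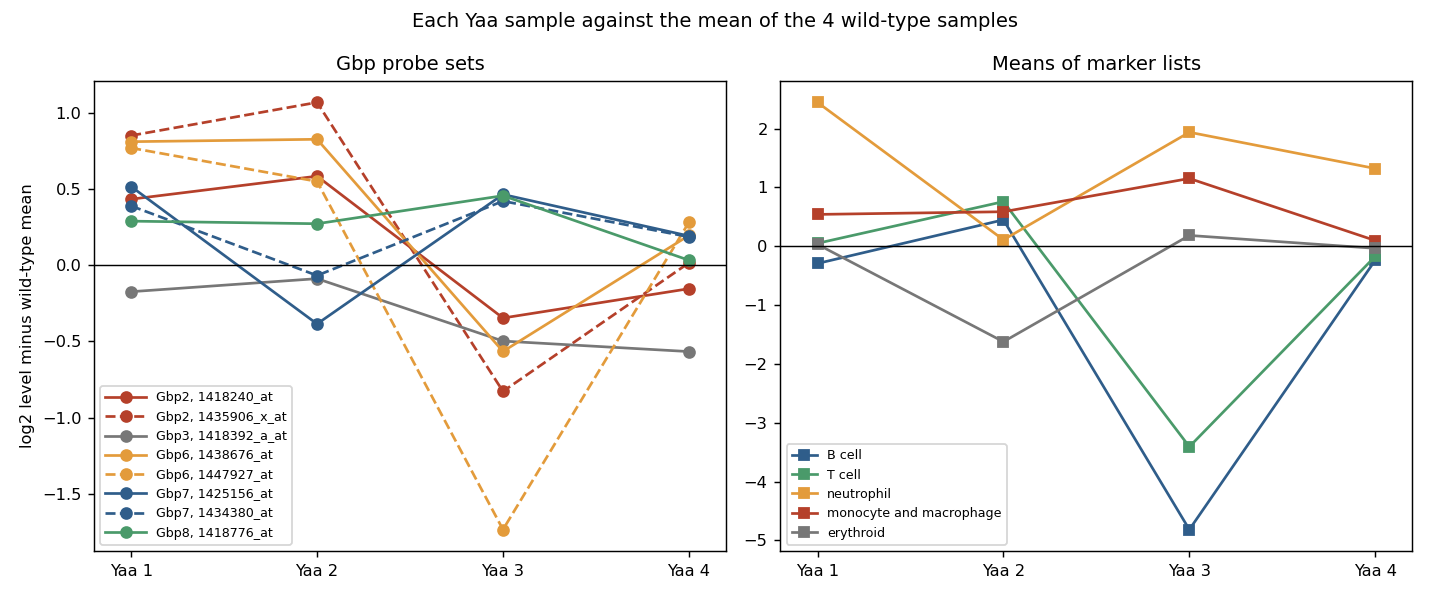
Left, deviation of each Yaa sample from the wild-type mean (log2) for each Gbp probe set, with solid lines for the first and dashed lines for the other probe set of a gene. Right, the same deviation for the mean of each marker list; Yaa 3 is low for B and T cell markers and for Gbp2 and Gbp6, and Yaa 2 is low for erythroid markers.

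Gbp7 has been linked in mouse macrophages to assembly of the phagocyte oxidase and to defence against the same bacteria as Gbp6. Its brighter probe set, 1434380_at, gave signals of 559.7, 403, 573 and 484 in Yaa 1 to Yaa 4, against 483, 427, 391 and 399 in wild type. After normalization Yaa 1, Yaa 3 and Yaa 4 were above every wild-type sample, and Yaa 2 was within the wild-type range. In the deposited signals Yaa 3 and Yaa 4 were at 0.86 and 0.93 of the wild-type mean, within the wild-type range. The difference was 0.23 ± 0.15 (SE), a fold of 1.17 with an interval from 0.933 to 1.48 and an exact permutation p of 0.114. Unlike Gbp2 and Gbp6, Gbp7 was not low in Yaa 3 after normalization. Leaving out Yaa 3 gave 0.17 ± 0.15 and leaving out Yaa 2 gave 0.33. With the deposited scaling the difference was 0.01, which was 0.21 above the median of all probe sets under that scaling.

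The other Gbp7 probe set, 1425156_at, had signals of 319, 163, 307 and 252 in Yaa, against 335, 226, 172 and 173 in wild type. Its spread was alike in the groups, with an SD of 0.41 in Yaa and 0.43 in wild type on the log2 scale, and the highest of the 8 samples was wild type 1. In the deposited signals Yaa 3 was at 0.83 of the wild-type mean. The difference was 0.20 ± 0.26 (SE), at an exact permutation p of 0.543. It was 0.39 without Yaa 2 and without wild type 1, 0.11 without Yaa 3, and 0.09 without Yaa 1, wild type 3 or wild type 4.

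Gbp8, a chromosome 5 member, had signals of 243, 239.6, 274 and 200.5 in Yaa 1 to Yaa 4 on probe set 1418776_at, against 171, 215, 207 and 192 in wild type. In these normalized signals Yaa 1, Yaa 2 and Yaa 3 were above every wild-type sample, and Yaa 4 lay between the wild-type values. In the deposited signals wild type 2 was the highest sample, at 276, with Yaa 1 at 256 and Yaa 2 at 265. After normalization all 4 Yaa samples were above the wild-type mean, which held for no other Gbp probe set, while in the deposited signals Yaa 3 and Yaa 4 were at 0.85 and 0.84 of that mean. The mean log2 signal was 7.99 ± 0.17 in Yaa and 7.72 ± 0.13 in wild type (SD, n = 4 each), a difference of 0.26 ± 0.14 (SE). The fold was 1.20, with an interval from 0.967 to 1.49 and the smallest exact permutation p of the family, 0.0857. Without Yaa 3 the difference was 0.20 ± 0.14 and without Yaa 2 it was 0.26. With the deposited scaling it was 0.05, which was 0.24 above the median of all probe sets under that scaling.

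Gbp3, of the chromosome 3 cluster, was the only gene of the 5 with a lower mean in Yaa on its brightest probe set. Probe set 1418392_a_at had signals of 172, 183, 134 and 127 in Yaa 1 to Yaa 4, against 149, 220.0, 143 and 309 in wild type. The groups overlapped, and wild type 2 and wild type 4 were the highest samples. The mean log2 signal was 7.39 ± 0.24 in Yaa and 7.73 ± 0.49 in wild type (SD, n = 4 each). The difference of -0.33 ± 0.24 (SE) corresponded to a fold of 0.795, with an interval from 0.542 to 1.17 and an exact permutation p of 0.286. Without wild type 4 it was -0.13, without Yaa 3 -0.28 and without Yaa 2 -0.41. With the deposited scaling it was -0.55, and the SD in Yaa was 0.486 times that in wild type.

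Gbp4 could not be given a value of its own. The probe set it shares with Gbp8, 1421104_at, was below the filter, with normalized signals of 2.22, 1.40, 1.82 and 4.0 in Yaa, against 3.78, 12.8, 28.7 and 16.8 in wild type. The 4 Yaa signals and 2 of the wild-type ones are below the 16 added before the logarithm. The difference without the filter was -0.72 ± 0.22 (SE), with an exact permutation p of 0.0571 and a limma adjusted p of 0.92. Gbp2b, a relative outside the listed genes, was also below the filter and gave -0.13 ± 0.27.

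The order of the 5 genes by difference, Yaa minus wild type, was Gbp6, Gbp8, Gbp7, Gbp2 and Gbp3, from 0.32 to -0.33. The first 4 genes differed from their neighbours in this order by less than either standard error, and Gbp2 and Gbp3 by more, with 95% intervals that overlapped. With 1435906_x_at in place of 1418240_at, Gbp2 moved up to the second place, and with 1447927_at in place of 1438676_at, Gbp6 moved down to the fourth. The 95% intervals of the 8 probe sets all included 0, and their upper ends ran from 1.17-fold for Gbp3 to 2.18-fold for 1435906_x_at of Gbp2. Their lower ends ran from 0.453-fold for 1447927_at of Gbp6 to 0.967-fold for Gbp8. The data exclude none of the values within these bounds, and equal levels were not shown.

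**Figure D3:**
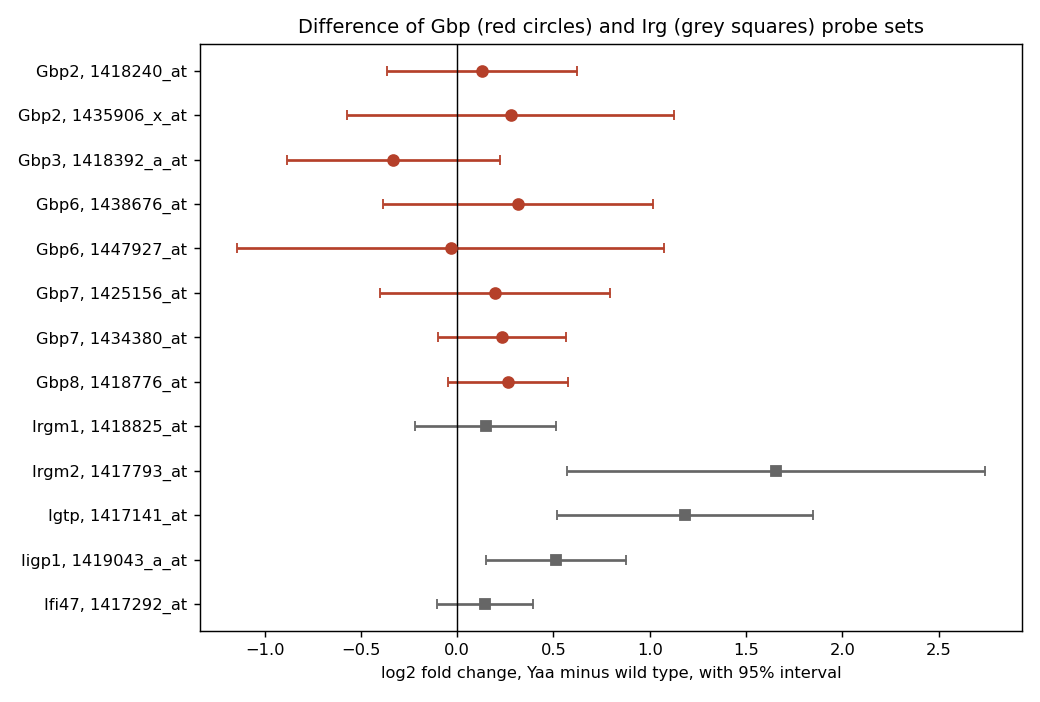
Difference in log2 signal, Yaa minus wild type, with its 95% interval (limma, n = 4 each) for the Gbp probe sets and for the tested Irg GTPases. All 8 Gbp intervals include 0, from -0.33 for Gbp3 to 0.32 for Gbp6, and those of Igtp (1.18), Irgm2 (1.66) and Iigp1 (0.51) do not. The intervals of the Irg genes Irgm1 (0.15) and Ifi47 (0.14) include 0.

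The spread within Yaa was wider than within wild type for 6 of 8 Gbp probe sets, a pattern shared with 82.8% of all tested probe sets. The median SD of the Gbp probe sets was 0.43 in Yaa and 0.19 in wild type on the log2 scale, against 0.34 in Yaa and 0.18 in wild type over all tested probe sets. With limma's array weights, which gave Yaa 2 a weight of 0.218 and Yaa 3 a weight of 0.223, 3 of 8 Gbp probe sets had an unadjusted p under 0.05, against 11.3% of all. They were both of Gbp7 and 1438676_at of Gbp6, all higher in Yaa. None passed the adjusted threshold, which 0.635% of all tested probe sets passed in that fit, and the smallest adjusted p was 0.265, for 1434380_at of Gbp7 at a difference of 0.33.

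**Figure D4:**
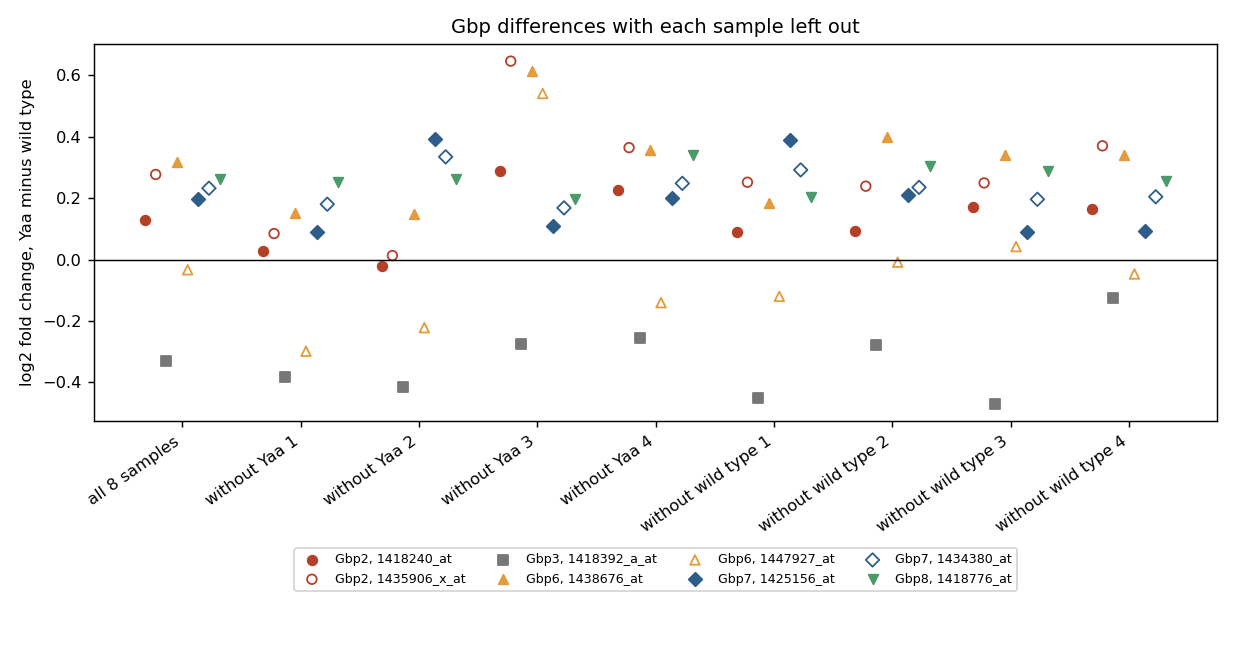
Difference in log2 signal, Yaa minus wild type, of each Gbp probe set with all samples and with each sample left out in turn. Leaving out Yaa 3 moves 1447927_at of Gbp6 to 0.54 from -0.03, and leaving out wild type 4 moves Gbp3 to -0.13.

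The Irg GTPases, which share interferon control and targets with the Gbp proteins, stood beside them on the same arrays: Igtp had log2 signals of 10.21, 8.89, 9.97 and 10.37 in Yaa and 8.71, 8.56, 8.83 and 8.60 in wild type (difference 1.18 ± 0.29 SE, limma adjusted p = 0.636), and Irgm2 had 9.04, 6.82, 9.03 and 9.13 in Yaa and 6.80, 6.74, 7.17 and 6.68 in wild type (1.66 ± 0.48, adjusted p = 0.816). Of the 5 Irg genes tested out of 10 listed, all had a higher mean in Yaa (median 0.51), 2 had groups that did not overlap (Igtp and Iigp1), against 2.43% of all tested probe sets in that direction, and 0 passed the adjusted threshold. Yaa 2 was the lowest Yaa sample for Irgm2 and Igtp and among the highest samples for Gbp2 and Gbp6, whereas Yaa 3 was high for Irgm2 and Igtp and low for Gbp2 and Gbp6. Without Yaa 2, Igtp (1.51, adjusted p = 0.0072) and Irgm2 (2.23, adjusted p = 0.0017) passed, as did 0.133% of all tested probe sets, and 0 Gbp probe sets did. A difference between the families was not tested.

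Upstream of the Gbp genes, no tested ligand or receptor gene of interferon signalling was called either. Of 5 tested ligand genes out of 10 listed, 4 had a higher mean in Yaa and 1 a lower one, with a median of 0.19 (0.28 without Yaa 3). Ifng was the only interferon among the tested ligand genes, which were otherwise other cytokines. The listed type I interferon genes were on the array but below the signal filter, so their levels were not tested. Ifng, the main inducer of the family, differed by 0.29 ± 0.17 (SE), and Tnf, a cytokine that acts with it on macrophages, by 0.62 ± 0.26. Il12b, a subunit of the interleukin that drives interferon gamma production, differed by 0.19 ± 0.20, and its partner subunit Il12a by -0.36 ± 0.57. Tnf had an unadjusted p under 0.05, as did 2.97% of all tested probe sets in that direction.

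All 7 listed receptor and kinase genes were tested, with 5 higher and 2 lower in Yaa, a median of 0.06 (0.18 without Yaa 3) and 0 with an unadjusted p under 0.05. The interferon gamma receptor chain Ifngr1 differed by 0.36 ± 0.22 (SE), the type I receptor chain Ifnar2 by 0.33 ± 0.18, and the kinases Jak1 and Jak2 by -0.13 ± 0.17 and 0.06 ± 0.13. Yaa 2 stood at 9.67 for Ifngr1, with the other Yaa samples at or below 8.94. The values of Jak2 changed sign with the scaling of the arrays.

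Of the transcription factors, 9 of 11 listed genes were tested, with 3 higher and 6 lower in Yaa, a median of -0.04 and 0 with an unadjusted p under 0.05. Irf1, needed for Gbp induction by interferon gamma, differed by -0.02 ± 0.26 (SE), and Irf9, a subunit of the factor that binds the ISRE, by 0.24 ± 0.17. Ciita, the switch of MHC class II genes, differed by -0.47 ± 0.32 (-0.12 without Yaa 3), Bach2, a repressor abundant in B cells, by -1.08 ± 0.96, and the repressor Irf2 by -0.18 ± 0.20. Without Yaa 3, where B cell markers averaged 5.77, Bach2 differed by 0.05, and 7 of the 9 genes had a higher mean in Yaa. Whether the low B cell markers have a part in the Bach2 value was not tested. Without Yaa 2 and Yaa 3 together, 4 of the 9 were higher and 5 lower, with a median of -0.12.

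Among the inhibitors, 5 of 6 listed genes were tested, with 2 higher and 3 lower in Yaa and a median of -0.01. Socs3, which blocks cytokine receptor kinases, was higher in Yaa by 0.86 ± 0.36 (SE) with groups that did not overlap. Such groups, higher in Yaa, were found in 2.43% of all tested probe sets. The other named inhibitors were Usp18 (0.51 ± 0.39), a brake on the type I receptor, the phosphatase Ptpn6 (-0.29 ± 0.31) and Pias1 (-0.02 ± 0.18), a SUMO ligase. None was called. Without Yaa 3 all 5 had a higher mean in Yaa. Without Yaa 2 and Yaa 3 together, 2 were higher and 3 lower, with a median of -0.07.

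Among other genes that answer interferon gamma, directions were mixed. Of 14 tested out of 20 listed, 6 had a higher and 8 a lower mean in Yaa, with a median of -0.08, and without Yaa 3 the counts were 7 and 7. The chemokine Cxcl10 was higher by 0.81 ± 0.27 (SE) and the tRNA ligase Wars lower by 0.25 in Yaa, each with groups that did not overlap and an unadjusted p under 0.05. Over all tested probe sets, 4.1% had groups that did not overlap and 4.73% an unadjusted p under 0.05. The Fc receptor Fcgr1 differed by 0.71 ± 0.34 (0.33 without Yaa 3) and the chemokine Cxcl9 by -0.48 ± 0.29 (-0.23 without Yaa 3). None was called.

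Of the type I interferon response genes, 18 of 21 tested, out of 24 listed, had a higher mean in Yaa and 3 a lower one, with a median of 0.30, against 47.6% of all tested probe sets with a higher mean. Without Yaa 3 the counts were 19 and 2. Of these, 4 had an unadjusted p under 0.05, all higher in Yaa, and 3 had groups that did not overlap, against 2.97% and 2.43% of all tested probe sets in that direction, while 0 were called. Rtp4, a chaperone of receptor trafficking that interferon induces, differed by 0.99 ± 0.19 (SE; limma adjusted p = 0.412). Oas1a, of the oligoadenylate synthetase family, differed by 0.58 ± 0.15, its relative Oasl2 by 0.56 ± 0.23, and Bst2, which tethers budding viruses, by 0.55 ± 0.22.

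Downstream, 9 of 11 listed inflammasome genes were tested, with 7 higher and 2 lower in Yaa, a median of 0.40, 3 with an unadjusted p under 0.05 (all higher in Yaa, against 2.97% of all tested probe sets in that direction) and 0 called. Without Yaa 3, 8 were higher and 1 lower, with a median of 0.23. Naip5, a sensor of bacterial flagellin, differed by 0.52 ± 0.14 (SE), and Mefv, which encodes pyrin, by 0.84 ± 0.30. Casp4, the mouse caspase that senses bacterial lipopolysaccharide released with the help of Gbp proteins, differed by 0.58 ± 0.24, and the cytokine Il1b by 0.61 ± 0.33. In group means, marker lists of phagocytes were also higher in Yaa. All 8 tested neutrophil markers had a higher mean (median 1.45). So did all 8 of monocytes and macrophages (median 0.67, and 7 of 8 at a median of 0.41 without Yaa 3). In Yaa 1 to Yaa 4 the inflammasome genes averaged 7.74, 8.39, 8.08 and 7.61. Neutrophil markers averaged 11.19, 8.86, 10.69 and 10.07 there, and monocyte and macrophage markers 9.56, 9.61, 10.18 and 9.12. Without Yaa 2 and Yaa 3 together, 4 of the 9 inflammasome genes had a higher mean in Yaa and 5 a lower one, with a median of -0.02. All 7 neutrophil markers tested then were higher (median 2.15), as were 5 of 8 of monocytes and macrophages (median 0.22). The part of phagocytes in the inflammasome differences was not tested.

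Genes of autophagy, with which Gbp proteins work, and of membrane anchoring were not called. Of 14 autophagy genes tested out of 14, 6 were higher and 8 lower in Yaa, with a median of -0.09 (4 and 10 without Yaa 3). Of these, 1 had an unadjusted p under 0.05, Map1lc3a, which encodes a ubiquitin-like protein of autophagosomes (0.28 ± 0.12 SE). The share of all tested probe sets in that direction was 2.97%. All 5 prenylation genes, whose enzymes attach or trim lipid anchors such as that of Gbp2, were tested, with 2 higher, 3 lower and a median of -0.03 (1 and 4 without Yaa 3).

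The chromosomal neighbours of the clusters were read from the RefSeq gene order, 5 on each side. Next to the chromosome 3 cluster 5 of 10 were tested, with 2 higher and 3 lower in Yaa and a median of -0.02 (3 and 2 without Yaa 3). Among these Kyat3, an aminotransferase gene, differed by 0.57 ± 0.20 (SE) with groups that did not overlap, against 2.43% of all tested probe sets in that direction. Next to the chromosome 5 cluster 5 of 10 were tested, and all 5 had a higher mean in Yaa with a median of 0.12 (3 of 5 without Yaa 3) and none with an unadjusted p under 0.05.

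Likeness of pattern was measured as the root mean square difference, over the 8 samples, between a gene's log2 deviations from its own mean and those of the Gbp profile. The mean of the 5 Gbp genes varied little, with a root mean square deviation of 0.18, and stood at 0.29, 0.24, -0.17 and -0.12 in Yaa 1 to Yaa 4 and at -0.24, 0.03, -0.11 and 0.08 in wild type. Its nearest genes were Znrf3, Ubac2, Tox4, Cab39 and Nemf, each at 0.07 to 0.08. Without Yaa 3, 3 of these 5 (Znrf3, Ubac2 and Tox4) were still among the nearest 5. Gbp6, the gene with the widest spread over samples at 0.47, had as its nearest genes Cacna1s (0.14), Sun2 (0.15), Xbp1 (0.15), Zfp516 (0.16) and Atp8b2 (0.16). Without Yaa 3, 1 of these, Xbp1, which encodes a transcription factor of the unfolded protein response and of plasma cells, was still among the nearest 5, at 0.11. The others were then Mzb1 (0.10), a B lineage gene, Ctla4 (0.10), an inhibitory receptor of T cells, Cst7 (0.11) and Mybpc2 (0.11).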

How the data were processed

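The authors deposited 1 table of MAS5 signal intensities, 1 value per probe set and array, per the submitters' processing notes, with RNA taken by Trizol and column and labelled with a one-cycle kit per the labels' protocols. No scanner files, detection calls or scan times were used here, so background correction and batches could not be examined. The deposited intensity ranged from 0.0296 to 20431.1, and array trimmed means differed by more than 10% from their median, so arrays were quantile normalized. Then log2(signal + 16) was taken, 64 controls and probe sets at or below the median mean signal were left out, and limma 3.58.1 (R 4.3.3; lmFit, eBayes with a trend) compared 4 Yaa with 4 wild-type samples over 22518 probe sets with Benjamini-Hochberg adjustment. The number of arrays limits the precision. A fold change is on the log2(signal + 16) scale, which understates changes of dim probe sets. MAS5 signals are not comparable between probe sets, so levels were not ranked across genes.

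Of 45037 probe sets, 34945 had 1 symbol in the platform annotation, 932 several and 9160 none, and 34754 of 34958 annotated probe sets matched a RefSeq gene ID. In lists, a gene with several probe sets was represented by its brightest. Exact two-sided permutation tests used all 70 arrangements. Named genes were all Gbp members, up to 4 genes with the smallest p in each other list, and the 5 genes nearest in pattern. Irf1, Irgm1, Ms4a1, Tlr7, Gbp2b and Casp9 were named besides where a sentence needed them. The Gbp members, the lists and the tests were chosen with earlier results of these data known. P-values measure the spread between these samples. The fit was also run on simulated data with the same spread in both groups, unlike most probe sets here, so no result rests on that run. Alternatives were other pseudocounts, filters, scalings, variance models, array weights, a replicate block and samples left out.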

Additional observations from a re-analysis of the deposited data

Results flagged for a closer look

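In 80 groups of 4 samples, those of the Gbp probe sets and the named genes, 8 had a highest or lowest sample far from the other 3, where chance alone gives about 1 in 20. Among the Gbp probe sets this was 1435906_x_at of Gbp2, in which wild type 4 stood at a log2 signal of 7.40 with the next sample at 7.06. The very low Yaa 3 value of 1447927_at of Gbp6 did not reach the limit. In Yaa 3, Il12a stood at 5.72, with the next Yaa sample at 8.27. In Yaa 2, Ifngr1 stood at 9.67 (next 8.94), Socs3 at 10.56 (next 9.26) and Irgm2 at 6.82 (next 9.03). In Yaa 1, Oasl2 stood at 8.31 (next 7.44). In wild type 1, Bst2 stood at 6.58 (next 7.23), and in wild type 2, Iigp1 stood at 6.52 (next 6.81).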

How the results depend on the processing

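No Gbp probe set passed the adjusted threshold under any of the 19 alternatives, in which the smallest adjusted p was 0.265, with array weights. The count over all tested probe sets was 1 and went to 0 with log2(signal + 1), 143 with array weights, 105 without Yaa 2 and Yaa 3 together, and 0 to 30 with each sample left out in turn (30 without Yaa 2, 10 without Yaa 4, 0 without Yaa 1 or Yaa 3, and 1 without any wild-type sample). The replicate block gave 0, with 731 probe sets at an unadjusted p under 0.05. Deviations of same-numbered samples correlated at -0.01, 0.02, -0.37 and -0.13. Whether the numbers mark a shared batch could not be examined.

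Signs changed for the values below. For 1447927_at of Gbp6 the difference was 0.059 with log2(signal + 64), 0.43 with array weights, 0.53 without Yaa 2 and Yaa 3, and -0.30 to 0.54 with 1 sample left out. For 1418240_at of Gbp2 it was -0.093 with the deposited scaling and -0.021 to 0.29 with 1 sample left out, and for 1425156_at of Gbp7 it was -0.029 with the deposited scaling. The other Gbp ranges with 1 sample left out were 0.013 to 0.65 for 1435906_x_at of Gbp2, 0.15 to 0.61 for 1438676_at of Gbp6, 0.09 to 0.39 for 1425156_at and 0.17 to 0.33 for 1434380_at of Gbp7, 0.20 to 0.34 for Gbp8 and -0.47 to -0.13 for Gbp3. The deposited scaling moved all probe sets by -0.20 in the median and also gave -0.16 for Jak2 and -0.084 for the Irg gene Ifi47; median-centred arrays gave -0.023 for Jak2. Array weights gave 0.057 for Il12a. Without Yaa 2 and Yaa 3, Il12a was 0.27, Il12b -0.016 and Il1b -0.046. With 1 sample left out, the ranges were -0.61 to 0.32 for Il12a, -0.0013 to 0.32 for Il12b, -0.028 to 0.11 for Jak2, -1.67 to 0.045 for Bach2, -0.53 to 0.046 for Ptpn6 and -0.18 to 0.082 for Pias1. Igtp and Irgm2 passed with array weights (1.52 and 2.12, each at adjusted p = 0.0036), without Yaa 2, and without Yaa 2 and Yaa 3, and Rtp4 and Oas1a passed with array weights (1.19 and 0.78) and without Yaa 2 and Yaa 3. Beyond fewer samples, the cause was not tested.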
